A study of Zea mays with 18 samples.

Results

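The genes described here are the 66 of 47334 genes in the deposited maize (*Zea mays*) table whose description contains the words Protein DETOXIFICATION. The description names an *Arabidopsis thaliana* protein, written here as DTX with its number, and 23 different numbers occurred among the members. The MatE domain was listed for 44 of the 66 and for no gene outside them. Proteins of this multidrug and toxic compound extrusion (MATE) family are membrane carriers that move organic compounds out of the cytosol against a gradient of protons or sodium ions. In plants they are known for releasing citrate from roots, for loading flavonoids and alkaloids into the vacuole, and for moving phenolic compounds and hormones between cells. In *Arabidopsis* DTX1 is known as an efflux carrier of plant compounds and of cadmium.

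Roots of 3 genotypes were compared. WT, *zmnrt1.1b* and *zmnlp3.1* seedlings were grown for 10 days in full nutrient solution and for 4 days without N, and their roots were taken 2 h after 5 mM KCl or 5 mM KNO3 was supplied. ZmNRT1.1B is a nitrate transporter and ZmNLP3.1 a NIN-like transcription factor of nitrate signalling, so that the comparisons ask which genes answer nitrate and how that answer differs when either protein is missing. The labels call both mutants knockdowns, whereas the methods describe loss-of-function lines made by CRISPR/Cas9, with ND101 named as the transformed inbred line, and which line of each gene was sequenced is not given in the sources used here. Each of the 6 groups, WT KCl, WT KNO3, *zmnrt1.1b* KCl, *zmnrt1.1b* KNO3, *zmnlp3.1* KCl and *zmnlp3.1* KNO3, held 3 libraries, all from plants starved of N beforehand and all supplied with potassium.

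Each library held between 16955904 and 19116969 reads recovered from the deposited values (median 17992374). Levels are fragments per kilobase of gene relative to a denominator of each library (FPKM), a scale per length on which genes can be compared. That denominator was 0.925 to 1.11 times the reads recovered from the library. The replicates are called biological replicates in the series' design text without further detail, so the p-values measure the spread between these libraries. Of 21 root marker genes 19 reached 1 FPKM in at least 3 libraries, against 16 of 54 genes of the shoot photosystems, whose summed level stayed between 32.1 and 93.4 FPKM. The study gives ZmNRT1.1B and ZmNLP3.1 gene IDs of an older series, which no table used here links to the IDs of the expression table, and an edit of the coding sequence need not lower reads. Over both treatments, the 3 tested genes described as NRT1/ PTR FAMILY 6.3 had log2 differences from -0.19 to 1.17 between *zmnrt1.1b* and WT. The 3 described as Protein NLP3 had -0.89 to 0.48 between *zmnlp3.1* and WT. Of the first, Zm00001d029932 was higher under KCl (1.17, limma adjusted p = 0.0151), where 3.92% of all genes differed. Of the second, Zm00001d009017 and Zm00001d039266 were lower under KNO3 (-0.76 and -0.89, limma adjusted p = 0.000738 and 0.000444), where 31.5% of all genes differed. The other differences of these genes had adjusted p over 0.05.

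Most of the family's RNA came from a few genes. The mean level over the 18 libraries was at least 10 FPKM for 17 members, from 1 to under 10 FPKM for 24 and under 1 FPKM for 25, with a median of 3.37 FPKM. The highest member, gene_Zm00001d013809 (DTX40, chromosome 5), held 22.3% of the summed mean level of the 66 genes, the top 3 held 35.1% and the top 8 held 57.4%. The other 7 of these 8 were gene_Zm00001d021629 and gene_Zm00001d013810 (both DTX40), Zm00001d042692 (DTX20), gene_Zm00001d005018 and gene_Zm00001d023277 (both DTX21), gene_Zm00001d034916 (DTX56) and gene_Zm00001d035115 (DTX42). Their mean levels lay between 23.7 and 47.6 FPKM, against 142 FPKM for gene_Zm00001d013809. Zm00001d042692 overlaps a gene on the opposite strand, as do 4 other members, and since the counting is not stated to use strand, reads of the overlapping genes cannot be told apart. How the counting treated reads that fit more than 1 near-identical copy is not given in the sources used here, so levels within the runs of like neighbours are uncertain.

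A level of 1 FPKM in at least 3 of the 18 libraries was required for testing, and 45 members met it. Of the remaining 21, 7 were listed at 0 in every library, where 3 reads would have given 0.0609 to 0.316 FPKM depending on length and library, and the other 14 did not exceed 0.922 FPKM in any library. The silent or nearly silent genes gathered under a few numbers, with 2 of 9 DTX19 genes and 2 of 7 DTX42 genes tested, and neither of the 2 DTX33 genes nor the single DTX51 gene. In *Arabidopsis* DTX42 is known as a root citrate exporter, DTX33 as a chloride channel of the vacuole and DTX51 as a carrier that acts on organ growth. All 7 DTX16 genes and all 5 DTX49 genes were tested.

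**Figure D1:**
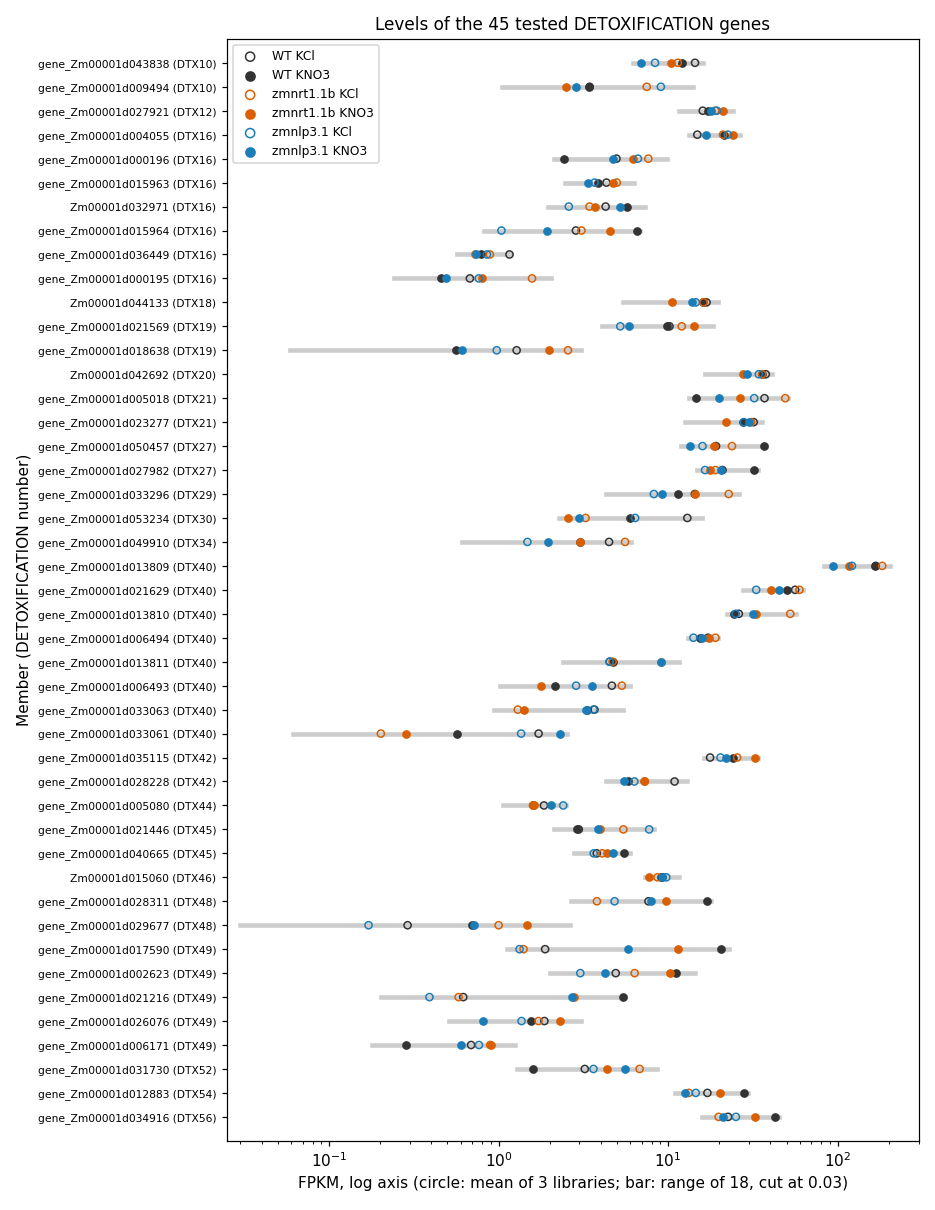
Levels of the 45 tested members in FPKM on a log axis, ordered by DETOXIFICATION number. Circles are means of 3 libraries (open for KCl, filled for KNO3, coloured by genotype) and bars span the 18 libraries, cut at 0.03 FPKM. gene_Zm00001d013809 (DTX40) lies to the right of all other members, and the filled WT circle of gene_Zm00001d017590 (DTX49) lies furthest from its open one.

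Differences were tested on log2(FPKM + 0.1) with limma over all 26011 genes that met the same minimum, with one estimate of spread from the 6 groups, and a call is an adjusted p (Benjamini-Hochberg over those genes) under 0.05. A response is the KNO3 level minus the KCl level of a genotype on this log2 scale. In WT roots, 12 members rose and 7 fell, so that 42.2% of the 45 tested members were called against 12.8% of all genes tested (6.43% up and 6.42% down). Among the 12 that rose, gene_Zm00001d021216 reached 1 FPKM only in KNO3 libraries. Without WT KCl replicate 1 the count was 10, with 7 up and 3 down. All genes then moved from 1673 up and 1669 down to 1273 and 1230. In *zmnrt1.1b* 6 members rose and 6 fell, beside 15.2% of all genes (6.81% up and 8.35% down). Without *zmnrt1.1b* KCl replicate 2 or replicate 3 the counts were 6 and 7. All genes moved from 1772 up and 2172 down to 798 and 961 without replicate 2, and to 1136 and 1282 without replicate 3. In *zmnlp3.1* 4 rose and 5 fell, beside 14.0% of all genes (6.88% up and 7.14% down). The count was 5 without *zmnlp3.1* KNO3 replicate 4, where all genes moved from 1790 up and 1857 down to 875 and 940. With only the *zmnlp3.1* libraries in the fit the member count was 4, and all genes moved to 408 up and 430 down. An absolute log2 difference over 1 was also reached by 10 of the called WT members, 5 of those of *zmnrt1.1b* and 4 of those of *zmnlp3.1*, beside 5.64%, 4.64% and 4.03% of all genes. The median response of the tested members was -0.07 for WT, -0.10 for *zmnrt1.1b* and -0.06 for *zmnlp3.1*, beside -0.0034, -0.03 and 0.01 for all genes, so that the calls lay on both sides of a centre near 0.

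Between genotypes, the largest number of calls was under KNO3 in *zmnlp3.1*, where 5 members were higher and 13 lower than in WT, beside 31.5% of all genes (14.7% higher and 16.7% lower). With limma voom on the recovered reads, which scales by library totals, this split was 8 higher and 13 lower, and that of all genes moved from 3829 higher and 4352 lower to 5809 and 3248, with the median of all genes moving from -0.0044 to 0.13. Under KNO3 in *zmnrt1.1b* 7 members were higher and 6 lower, beside 17.6% of all genes (7.90% higher and 9.66% lower). By voom the members split 8 and 7, and all genes moved from 2055 higher and 2513 lower to 2766 and 2040. Under KCl 5 were higher and 4 lower in *zmnrt1.1b*, beside 3.92% of all genes (2.06% higher and 1.85% lower). Without WT KCl replicate 2 this count was 5, and all genes moved from 537 higher and 482 lower to 354 and 237. In *zmnlp3.1* under KCl 2 were higher and 7 lower, beside 9.39% of all genes (2.58% higher and 6.81% lower), and voom gave 3 and 7, with all genes moving from 671 higher and 1771 lower to 1486 and 1561. The response itself differed from that of WT for 2 members in *zmnrt1.1b*, both with the lower value in the mutant, beside 1.51% of all genes (0.542% higher and 0.969% lower). In *zmnlp3.1* it differed for 8 members, 6 lower and 2 higher, beside 4.89% of all genes (2.68% lower and 2.21% higher), and voom gave 5 lower and 4 higher, with all genes moving from 698 lower and 574 higher to 641 and 804. A log2 difference over 1 in size was also reached under KNO3 by 10 of the called members in *zmnlp3.1* and 6 in *zmnrt1.1b*, beside 9.70% and 6.54% of all genes. Under KCl it was reached by 4 and 6, beside 3.66% and 2.06%, and for the responses by 4 and 1, beside 2.65% and 1.04%. The counts of these response differences changed in fits without 1 library, and so did those of all genes. Without *zmnrt1.1b* KCl replicate 2 all genes moved from 141 higher and 252 lower to 18 and 59 for *zmnrt1.1b*. Without WT KNO3 replicate 3 they moved from 574 higher and 698 lower to 239 and 344 for *zmnlp3.1*. The member count for *zmnrt1.1b* was 1 without any one of WT KCl replicate 3, WT KNO3 replicates 1 and 3, *zmnrt1.1b* KCl replicates 2 and 4 and *zmnrt1.1b* KNO3 replicate 4. That for *zmnlp3.1* was 3 without WT KNO3 replicate 3 or *zmnlp3.1* KNO3 replicate 4. It was 4 without WT KCl replicate 1, *zmnlp3.1* KCl replicate 3 or *zmnlp3.1* KNO3 replicate 3, and 5 without WT KCl replicate 3 or WT KNO3 replicate 1. All of the comparisons of a mutant with WT share the WT libraries. In all, 31 of the 45 members were called in at least 1 of the 9 comparisons and 14 in none.

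**Figure D2:**
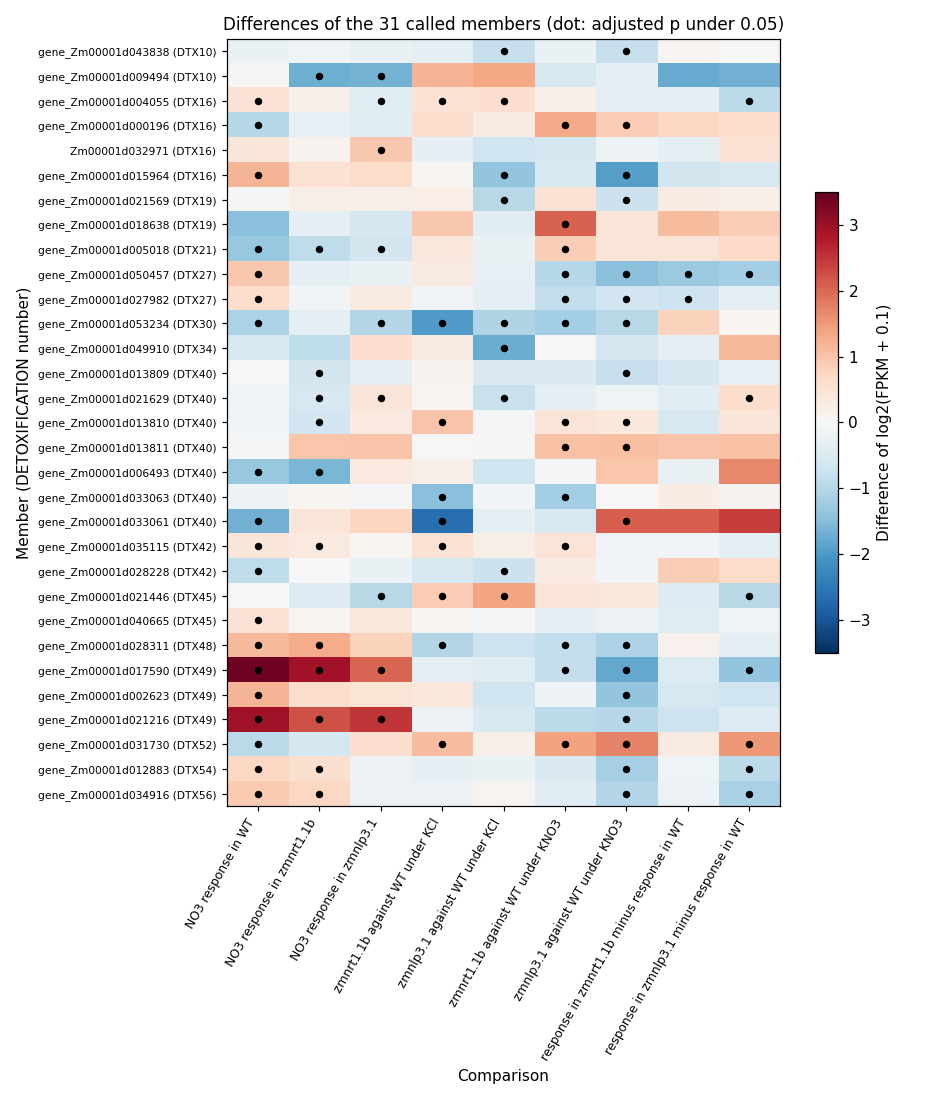
Differences of log2(FPKM + 0.1) for the 31 members called in at least 1 of 9 comparisons (columns), ordered by DETOXIFICATION number (rows). Red is higher and blue lower in the first-named condition, and dots mark an adjusted p under 0.05 from limma. Apart from DTX52, which has the opposite colours, the genes numbered 48 to 56 are red for the WT response and blue for *zmnlp3.1* against WT under KNO3.

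The summed level of the 66 members was 665 ± 24.1 FPKM under KCl and 714 ± 13.7 FPKM under KNO3 in WT (SD, n = 3 each). For *zmnrt1.1b* the sums were 737 ± 24.5 under KCl and 613 ± 12.9 FPKM under KNO3, and for *zmnlp3.1* they were 552 ± 49.6 under KCl and 525 ± 18.0 FPKM under KNO3 (SD over 3 libraries). The sum was thus higher under KNO3 in WT and lower under KNO3 in *zmnrt1.1b*, with no overlap between the libraries in either case. Both *zmnlp3.1* groups lay below both WT groups. The WT ranges were close, 647 to 692 FPKM under KCl and 698 to 722 FPKM under KNO3. The FPKM denominator was 0.981 to 1.01 times the recovered reads in WT KCl and 0.925 to 0.960 times in WT KNO3. A smaller denominator gives a higher FPKM for the same reads. Whether the WT ranges stay apart when scaled by library totals was not tested. The sum weighs abundant members most. gene_Zm00001d013809, with 22.3% of the summed mean level, had a response of -0.65 in *zmnrt1.1b*, a call lost in 3 of 6 fits without 1 library. In bulk roots, fewer cells of a type and less RNA per cell cannot be told apart. The summed marker levels moved between the groups as well. Most of the root sum came from genes described as Aquaporin PIP2, with a median of 1209 FPKM over the libraries beside 1328.5 FPKM for the whole root list. The root list ranged from 1433 to 1692 FPKM in WT KCl, 1328 to 1424 in WT KNO3, 1427 to 1740 in *zmnrt1.1b* KCl, 870.0 to 1255 in *zmnrt1.1b* KNO3, 944 to 1459 in *zmnlp3.1* KCl and 875 to 1087 in *zmnlp3.1* KNO3. The shoot list ranged from 90.7 to 93.4 FPKM in *zmnrt1.1b* KCl and from 32.1 to 78.1 FPKM in the other 5 groups, with 8 of its 54 genes at 0 throughout. The part of these shifts in the family's differences was not tested.

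Grouped by number for description, the members numbered 48 to 56 held 6 of the 12 WT increases. The ranges of numbers were not among the planned lists, and earlier results of these data were known. Of the 11 such genes 10 were tested, 6 rose and 1 fell in WT, beside 6.43% up and 6.42% down among all genes. The median response of the 10 was 0.82. Among the 6, gene_Zm00001d021216 met the minimum for testing only through KNO3 libraries. Under KNO3 in *zmnlp3.1* 6 of the 10 were lower and 1 higher than in WT, beside 16.7% lower and 14.7% higher among all genes, with a median difference of -1.01. Under KCl none of them was called in that mutant, but their median difference from WT was already -0.48, beside 0.0026 for all genes. The median difference between the responses of *zmnlp3.1* and WT was -0.40 for these members. The 13 tested members numbered 10 to 19 had 2 increases and 1 decrease in WT with a median of -0.07, the 16 numbered 20 to 40 had 2 and 4 with a median of -0.17, and the 6 numbered 42 to 46 had 2 and 1 with a median of -0.02.

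The strongest response belonged to gene_Zm00001d017590, a DTX49 gene on the plus strand of chromosome 5 (200820486 to 200822192, B73 RefGen_v4). Its level in WT was 1.31, 2.66 and 1.68 FPKM under KCl and 17.0, 21.5 and 22.8 FPKM under KNO3. In *zmnrt1.1b* it was 1.12, 1.48 and 1.61 FPKM under KCl and 12.6, 12.3 and 9.44 FPKM under KNO3. In *zmnlp3.1* it was 1.36, 1.21 and 1.43 FPKM under KCl and 6.46, 5.43 and 5.60 FPKM under KNO3. The KCl levels of the 3 genotypes overlapped, every KNO3 library lay above every KCl library, and under KNO3 the genotypes formed 3 separate ranges with WT highest and *zmnlp3.1* lowest. The gene rose by 3.42 in WT (SE 0.21, 10.7-fold, limma adjusted p = 5.9e-08), by 2.94 in *zmnrt1.1b* (7.68-fold, limma adjusted p = 1.15e-06) and by 2.05 in *zmnlp3.1* (4.14-fold, limma adjusted p = 3.53e-05). Under KNO3 it was lower than in WT by a log2 difference of -1.78 in *zmnlp3.1* (3.44-fold, limma adjusted p = 2.94e-05) and of -0.83 in *zmnrt1.1b* (limma adjusted p = 0.0141). The second call was lost without WT KNO3 replicate 3 (limma adjusted p = 0.0588) or *zmnrt1.1b* KNO3 replicate 5 (limma adjusted p = 0.0574). The response in *zmnlp3.1* was smaller than in WT by -1.37 (SE 0.30, limma adjusted p = 0.018), a call that missed the threshold without WT KNO3 replicate 3 (limma adjusted p = 0.0505). For *zmnrt1.1b* the difference of the responses was -0.48 (SE 0.30, limma adjusted p = 0.442).

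A second DTX49 gene, gene_Zm00001d021216 on chromosome 7 (146426539 to 146429054), responded in all 3 genotypes from a lower level. It had 0.633, 0.457 and 0.769 FPKM under KCl and 5.40, 5.23 and 5.55 FPKM under KNO3 in WT. Under KNO3 the *zmnrt1.1b* libraries held 3.17, 2.69 and 2.45 FPKM and the *zmnlp3.1* libraries 3.39, 2.24 and 2.46 FPKM, and the KCl libraries of both mutants stayed between 0.204 and 0.801 FPKM. Each KNO3 library lay above each KCl library, and under KNO3 the mutants overlapped each other and stayed below WT. The gene rose by 2.96 in WT (limma adjusted p = 2.74e-05), 2.22 in *zmnrt1.1b* (limma adjusted p = 0.000709) and 2.51 in *zmnlp3.1* (limma adjusted p = 0.000313). With a pseudocount of 1 FPKM the WT rise was 1.99 and the mutant rises were 1.27 and 1.40. Together with gene_Zm00001d017590 it made up the 2 members that rose in all 3 genotypes. It reached 1 FPKM in 9 libraries, all of them KNO3 libraries. The gene thus met the minimum for testing only through the groups where it was high. Under KNO3 it was lower in *zmnlp3.1* by -1.0 (limma adjusted p = 0.0368), but this call was lost without any one of WT KNO3 replicates 1, 3 and 4 and *zmnlp3.1* KNO3 replicates 3 and 4, with adjusted p from 0.0816 to 0.11 in limma. The response differences of -0.73 in *zmnrt1.1b* and -0.45 in *zmnlp3.1* (SE 0.48 each) were not called.

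Of the other 3 DTX49 genes, 1 was called. gene_Zm00001d002623 on chromosome 2 had 3.87, 6.29 and 4.59 FPKM under KCl and 10.4, 12.5 and 10.5 FPKM under KNO3 in WT. Under KNO3 the *zmnrt1.1b* libraries held 14.5, 7.70 and 8.5 FPKM and the *zmnlp3.1* libraries 3.21, 5.55 and 3.98 FPKM. The *zmnrt1.1b* libraries thus overlapped WT, whereas all *zmnlp3.1* libraries lay below it. It rose in WT by 1.18 (limma adjusted p = 0.00698) and was lower in *zmnlp3.1* under KNO3 by -1.39 (2.63-fold, limma adjusted p = 0.00121). The lowest level in the KCl libraries of the mutants was 2.01 FPKM. Neither its responses in the mutants nor their differences from the WT response were called. gene_Zm00001d026076 stayed between 0.514 and 3.06 FPKM and gene_Zm00001d006171 between 0.179 and 1.25 FPKM, and neither was called in any comparison. The genes share the description, and no sequence was used here to compare them.

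DTX48, known in *Arabidopsis* for a role in organ initiation and iron homeostasis, had 2 genes. gene_Zm00001d028311 on chromosome 1 had 7.54, 8.29 and 7.16 FPKM under KCl and 17.9, 15.9 and 17.2 FPKM under KNO3 in WT. In *zmnrt1.1b* it had 3.12, 3.44 and 4.85 FPKM (KCl) and 10.7, 12.1 and 6.14 FPKM (KNO3), and in *zmnlp3.1* it had 2.67, 6.10 and 5.74 FPKM (KCl) and 7.58, 7.53 and 8.70 FPKM (KNO3). In each genotype the KNO3 libraries lay above the KCl libraries, and in each treatment both mutants lay below WT. It rose by 1.14 in WT (limma adjusted p = 0.0104) and by 1.29 in *zmnrt1.1b* (limma adjusted p = 0.00578), and its response of 0.79 in *zmnlp3.1* was not called (limma adjusted p = 0.0658). Under KNO3 it was lower in *zmnlp3.1* by -1.09 (limma adjusted p = 0.00697). The lower levels in *zmnrt1.1b*, by -1.01 under KCl and -0.86 under KNO3, were called by narrow margins (limma adjusted p = 0.0487 and 0.0393). The KCl call was lost in each of the 6 fits without 1 library (adjusted p from 0.0501 to 0.183). The KNO3 call was lost without any one of WT KNO3 replicates 1, 3 and 4 or *zmnrt1.1b* KNO3 replicate 5 (adjusted p from 0.0774 to 0.157), and the difference was -0.57 without the last of these. The other DTX48 gene, gene_Zm00001d029677, reached at most 2.64 FPKM and was not called.

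The DTX54 and DTX56 genes were higher in WT under KNO3 and near their KCl levels in *zmnlp3.1*. DTX56 is known in *Arabidopsis* as a regulator of the stomatal answer to carbon dioxide. gene_Zm00001d034916 (DTX56, chromosome 1) had 23.1, 23.7 and 21.0 FPKM under KCl and 45, 41.7 and 41.1 FPKM under KNO3 in WT. It had 18.8, 21.4 and 35.1 FPKM under KCl and 18.8, 20.5 and 23.7 FPKM under KNO3 in *zmnlp3.1*, where the ranges of both treatments overlapped. In *zmnrt1.1b* it had 18.1, 15.8 and 25.7 FPKM under KCl and 38.7, 33.8 and 25.4 FPKM under KNO3, also overlapping. The gene rose in WT by 0.91 (1.88-fold, limma adjusted p = 0.00901) and was lower in *zmnlp3.1* under KNO3 by -1.02 (limma adjusted p = 0.00224). Its rise of 0.72 in *zmnrt1.1b* (limma adjusted p = 0.033) was lost without *zmnrt1.1b* KCl replicates 2 or 3 or *zmnrt1.1b* KNO3 replicates 2 or 4 (adjusted p from 0.0935 to 0.136). The response difference of -1.12 in *zmnlp3.1* (limma adjusted p = 0.0435) was lost in 11 of the 12 fits without 1 library, with adjusted p up to 0.101, and held only without *zmnlp3.1* KCl replicate 1.

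gene_Zm00001d012883 (DTX54, chromosome 5) had 15.2, 19 and 17.0 FPKM under KCl and 28.5, 26.0 and 29.8 FPKM under KNO3 in WT. In *zmnrt1.1b* it had 12.8, 14 and 13.0 FPKM (KCl) and 20.7, 25.6 and 14.3 FPKM (KNO3), and in *zmnlp3.1* it had 12, 13.9 and 17.8 FPKM (KCl) and 11, 13.2 and 13.3 FPKM (KNO3). WT and *zmnrt1.1b* thus had higher levels in each KNO3 library than in any KCl library, while in *zmnlp3.1* the treatments overlapped. It was lower in *zmnlp3.1* under KNO3 by -1.16 (2.24-fold, limma adjusted p = 0.000243). The rise of 0.72 in WT (limma adjusted p = 0.0132) was lost without WT KCl replicate 1 (limma adjusted p = 0.0606). The rise of 0.56 in *zmnrt1.1b* (limma adjusted p = 0.0448) was lost in 5 of 6 fits without 1 library, all but that without *zmnrt1.1b* KNO3 replicate 5, with adjusted p up to 0.195, and was 0.37 without *zmnrt1.1b* KNO3 replicate 4. The response difference of -0.92 in *zmnlp3.1* (limma adjusted p = 0.0474) was lost in 11 of 12 such fits, all but that without *zmnlp3.1* KCl replicate 1, with adjusted p up to 0.104.

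gene_Zm00001d031730, the DTX52 gene on chromosome 1, went the other way. It had 4.45, 2.19 and 3.05 FPKM under KCl and 1.68, 1.81 and 1.29 FPKM under KNO3 in WT. It had 5.66, 6.08 and 8.65 FPKM (KCl) and 4.80, 3.90 and 4.33 FPKM (KNO3) in *zmnrt1.1b*, and 3.66, 2.93 and 4.31 FPKM (KCl) and 4.32, 6.05 and 6.32 FPKM (KNO3) in *zmnlp3.1*. Under KNO3 all libraries of both mutants lay above WT. The difference there was 1.40 in *zmnrt1.1b* (limma adjusted p = 0.001) and 1.74 in *zmnlp3.1* (3.33-fold, limma adjusted p = 0.000112). Its fall by 0.93 in WT (limma adjusted p = 0.0173) was lost without WT KCl replicate 1 (adjusted p = 0.0967) or WT KNO3 replicate 4 (adjusted p = 0.0745). The response in *zmnlp3.1* was higher than in WT by 1.53 (limma adjusted p = 0.0191), and this missed the threshold without *zmnlp3.1* KNO3 replicate 4 (adjusted p = 0.0543). The higher KCl level in *zmnrt1.1b*, by 1.08 (limma adjusted p = 0.0186), was lost without WT KCl replicates 2 or 3 or *zmnrt1.1b* KCl replicate 4 (limma adjusted p = 0.0931, 0.0613 and 0.098).

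**Figure D3:**
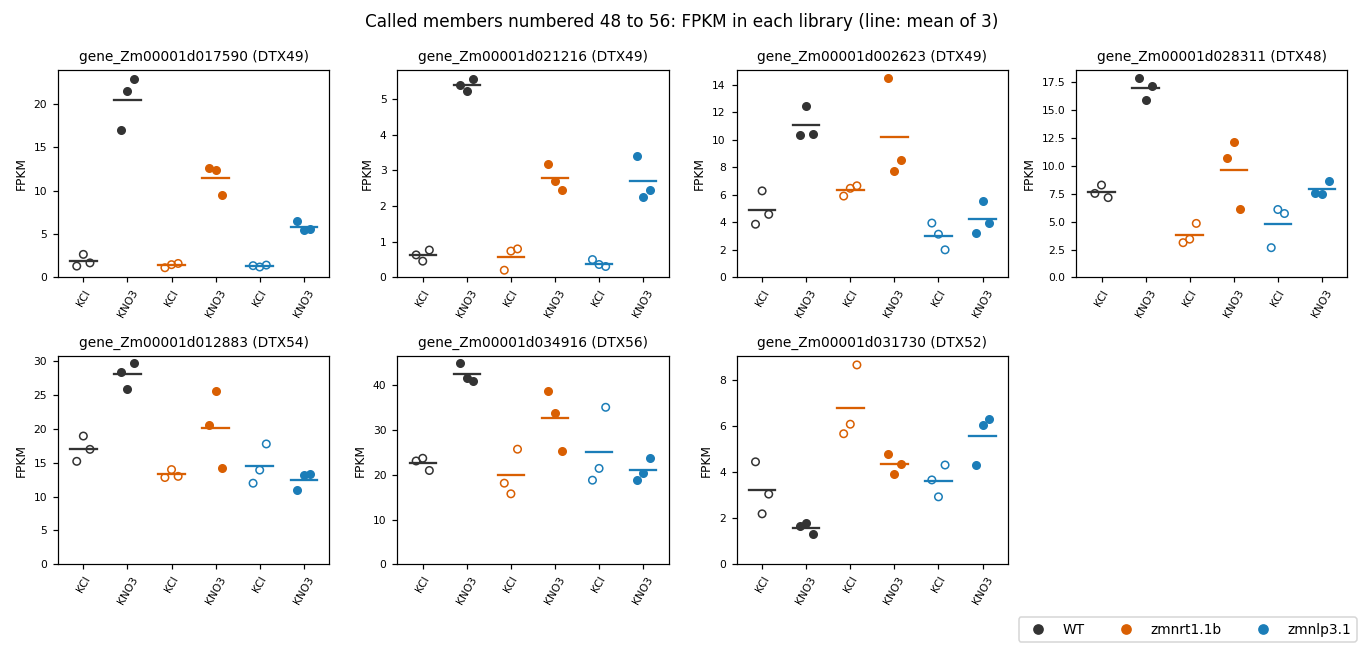
FPKM in each library for the 7 called members numbered 48 to 56, one panel a gene, with KCl (open) and KNO3 (filled) libraries of WT, *zmnrt1.1b* and *zmnlp3.1* from left to right and lines at means of 3. In 6 panels the WT KNO3 libraries are the highest or overlap the highest group. In the DTX52 panel WT KNO3 is lowest, between 1.29 and 1.81 FPKM.

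Both DTX27 genes rose in WT, and neither was called for the response in a mutant. gene_Zm00001d050457 on chromosome 4 (89899331 to 89903754) had 19.8, 20.5 and 17.2 FPKM under KCl and 37.6, 34.8 and 38.0 FPKM under KNO3 in WT. In *zmnrt1.1b* it had 26.8, 21.2 and 23.4 FPKM (KCl) and 17.5, 18.3 and 19.8 FPKM (KNO3), and in *zmnlp3.1* it had 16.3, 13.1 and 18.6 FPKM (KCl) and 14.4, 12 and 13.8 FPKM (KNO3). The WT KNO3 libraries stood above all others, and in *zmnrt1.1b* the KNO3 libraries lay below the KCl libraries. The gene rose in WT by 0.94 (SE 0.13, 1.92-fold, limma adjusted p = 0.000129), against -0.36 in *zmnrt1.1b* (adjusted p = 0.0759) and -0.24 in *zmnlp3.1* (adjusted p = 0.233). Both response differences were called, -1.29 in *zmnrt1.1b* (SE 0.18, limma adjusted p = 0.00328) and -1.18 in *zmnlp3.1* (SE 0.18, limma adjusted p = 0.00295). Under KNO3 it was lower than in WT by -0.98 in *zmnrt1.1b* (limma adjusted p = 0.000123) and by -1.45 in *zmnlp3.1* (2.74-fold, limma adjusted p = 1.94e-06). All 5 of its calls passed under every alternative tried and in every fit without 1 library.

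gene_Zm00001d027982 on chromosome 1 (19312947 to 19319926) had 22.4, 22.6 and 17.9 FPKM under KCl and 32.2, 33.9 and 30.8 FPKM under KNO3 in WT. In *zmnrt1.1b* it had 20.9, 17.1 and 19.2 FPKM (KCl) and 17.9, 17.6 and 17.5 FPKM (KNO3), and in *zmnlp3.1* it had 17.9, 14.8 and 16.9 FPKM (KCl) and 20.3, 21.2 and 19.8 FPKM (KNO3). WT KNO3 again stood apart, and in *zmnlp3.1* the KNO3 libraries lay above the KCl libraries without reaching WT. It rose in WT by 0.63 (limma adjusted p = 0.00103), and under KNO3 it was lower by -0.86 in *zmnrt1.1b* (limma adjusted p = 9.46e-05) and by -0.66 in *zmnlp3.1* (limma adjusted p = 0.000464). The response difference was -0.73 in *zmnrt1.1b* (limma adjusted p = 0.0314) and -0.32 in *zmnlp3.1* (limma adjusted p = 0.247). The call in *zmnrt1.1b* was lost without any one of WT KCl replicate 3, WT KNO3 replicates 1 and 3, *zmnrt1.1b* KCl replicates 2 and 4 and *zmnrt1.1b* KNO3 replicate 4, with adjusted p from 0.0594 to 0.1.

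Among the genes that fell, gene_Zm00001d005018 (DTX21, chromosome 2) was the only member to fall in all 3 genotypes. It had 36.4, 38.9 and 35.8 FPKM under KCl and 17.0, 13.3 and 13.8 FPKM under KNO3 in WT. In *zmnrt1.1b* it had 51.3, 50.3 and 45.8 FPKM (KCl) and 29.0, 22.7 and 28.2 FPKM (KNO3), and in *zmnlp3.1* it had 42.7, 27.3 and 26.6 FPKM (KCl) and 19.4, 23.6 and 17.4 FPKM (KNO3). No genotype had overlapping treatments, and *zmnrt1.1b* stood above WT under both. The gene fell by 1.34 in WT (2.52-fold, limma adjusted p = 5.51e-05), by 0.89 in *zmnrt1.1b* (limma adjusted p = 0.00303) and by 0.65 in *zmnlp3.1* (limma adjusted p = 0.0181). The last call was lost without *zmnlp3.1* KCl replicate 1 (-0.43, adjusted p = 0.0851) or *zmnlp3.1* KNO3 replicate 4 (adjusted p = 0.0861). Under KNO3 the gene was higher in *zmnrt1.1b* by 0.85 (limma adjusted p = 0.00264). The other DTX21 gene, gene_Zm00001d023277, lay between 12.6 and 35.8 FPKM and was not called.

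gene_Zm00001d053234, the DTX30 gene on chromosome 4, was lower in both mutants under both treatments. It had 11.6, 15.8 and 11.5 FPKM under KCl and 5.64, 5.46 and 6.69 FPKM under KNO3 in WT. It had 3.22, 2.39 and 4.17 FPKM (KCl) and 2.38, 3.08 and 2.27 FPKM (KNO3) in *zmnrt1.1b*, and 8.96, 5.12 and 5.10 FPKM (KCl) and 2.79, 3.56 and 2.60 FPKM (KNO3) in *zmnlp3.1*. The mutant ranges lay below the WT range in each treatment, and in *zmnrt1.1b* the treatments overlapped. Under KCl the difference from WT was -1.98 in *zmnrt1.1b* (3.95-fold, limma adjusted p = 0.000217) and -1.05 in *zmnlp3.1* (limma adjusted p = 0.0108). The *zmnlp3.1* call was lost without WT KCl replicate 2 (adjusted p = 0.0519) or *zmnlp3.1* KCl replicate 4 (adjusted p = 0.0534). Under KNO3 the differences were -1.18 (limma adjusted p = 0.0028) and -0.98 (limma adjusted p = 0.00546). The gene fell by 1.11 in WT (limma adjusted p = 0.00462) and by 1.04 in *zmnlp3.1* (limma adjusted p = 0.00919, or 0.0733 with only the groups compared in the fit), while its response in *zmnrt1.1b* was -0.31 (limma adjusted p = 0.407). The response difference of 0.80 in *zmnrt1.1b* (SE 0.33) was not called (limma adjusted p = 0.222).

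gene_Zm00001d028228 (DTX42, chromosome 1), which overlaps a gene on the opposite strand, fell in WT. It had 8.08, 13.0 and 11.7 FPKM under KCl and 6.26, 5.79 and 5.34 FPKM under KNO3, without overlap (-0.88, limma adjusted p = 0.00501). In the mutants all 12 libraries lay between 4.33 and 8.36 FPKM, with responses of -0.02 in *zmnrt1.1b* and -0.23 in *zmnlp3.1* that were not called. Its KCl level was lower in *zmnlp3.1* by -0.75 (limma adjusted p = 0.0197), a call lost without WT KCl replicates 2 or 3 or *zmnlp3.1* KCl replicate 4 (limma adjusted p = 0.0869, 0.0775 and 0.0606). The more abundant DTX42 gene, gene_Zm00001d035115 on chromosome 6, was higher in *zmnrt1.1b*. It had 16.3, 17.7 and 19.1 FPKM in WT KCl, 24.7, 26.0 and 21.4 FPKM in WT KNO3, 24.9, 25.3 and 26.4 FPKM in *zmnrt1.1b* KCl and 32.2, 31.6 and 33.8 FPKM in *zmnrt1.1b* KNO3. In *zmnlp3.1* its 6 libraries lay between 17.8 and 22.9 FPKM. *zmnrt1.1b* stood above WT in each treatment, by 0.53 under KCl (limma adjusted p = 0.00847) and 0.44 under KNO3 (limma adjusted p = 0.00863), the latter lost with only the groups compared in the fit (adjusted p = 0.0538). Its rises of 0.44 in WT and 0.35 in *zmnrt1.1b* (limma adjusted p = 0.0103 and 0.0344) were not called in every fit without 1 library. Over all alternatives they stayed at 0.37 to 0.52 and 0.32 to 0.37. The first was lost without WT KCl replicate 1 or WT KNO3 replicate 3 (adjusted p = 0.0518 and 0.0604), and the second in 5 of 6 fits, all but that without *zmnrt1.1b* KNO3 replicate 2 (adjusted p up to 0.117).

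The 10 DTX40 genes included the 2 highest in the family and 3 runs of neighbours. On chromosome 5, gene_Zm00001d013809, gene_Zm00001d013810 and gene_Zm00001d013811 lie within 21121347 to 21201937 on the plus strand and differed from one another. gene_Zm00001d013809 had 152, 177 and 174 FPKM in WT KCl and 164, 185 and 146 FPKM in WT KNO3, with overlap. It had 205, 182 and 164 FPKM (KCl) and 123, 98.1 and 130 FPKM (KNO3) in *zmnrt1.1b*, and 157, 124 and 82.9 FPKM (KCl) and 105, 94.2 and 84.2 FPKM (KNO3) in *zmnlp3.1*. Under KNO3 both mutants lay below WT, and *zmnlp3.1* was called (-0.80, limma adjusted p = 0.00447) where *zmnrt1.1b* was not (-0.50, limma adjusted p = 0.0764). The fall by 0.65 in *zmnrt1.1b* (limma adjusted p = 0.0285) was lost without *zmnrt1.1b* KCl replicates 2 or 3 or *zmnrt1.1b* KNO3 replicate 4 (limma adjusted p = 0.121, 0.0716 and 0.114).

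The next gene in this run, gene_Zm00001d013810, had 29.2, 24.8 and 24.4 FPKM in WT KCl and 26.1, 23.7 and 23.2 FPKM in WT KNO3. It had 48.1, 53.0 and 56.6 FPKM in *zmnrt1.1b* KCl, 33.4, 32.2 and 33.3 FPKM in *zmnrt1.1b* KNO3, 26.3, 22.4 and 26.5 FPKM in *zmnlp3.1* KCl and 28.6, 34.5 and 31.6 FPKM in *zmnlp3.1* KNO3. The *zmnrt1.1b* KCl libraries stood above all others. The difference from WT was 1.01 under KCl (2.01-fold, limma adjusted p = 8.17e-05) and 0.44 under KNO3 (limma adjusted p = 0.0106) in *zmnrt1.1b*, and the gene fell there by 0.67 (limma adjusted p = 0.000972). The higher level in *zmnlp3.1* under KNO3, by 0.37 (limma adjusted p = 0.0161), was lost without WT KNO3 replicates 3 or 4 or *zmnlp3.1* KNO3 replicates 3 or 4 (adjusted p from 0.05 to 0.0691). gene_Zm00001d013811, the third, had 2.42 to 7.41 FPKM in the WT libraries and 7.0 to 11.6 FPKM in the KNO3 libraries of both mutants, of which 1 *zmnrt1.1b* library reached the WT range. Its higher KNO3 levels, by 1.03 in *zmnrt1.1b* and 1.06 in *zmnlp3.1* (limma adjusted p = 0.0499 and 0.0291), were each lost in 4 of 6 fits without 1 library, among them that without WT KNO3 replicate 3 (0.63 and 0.66, adjusted p = 0.248 and 0.164). The other such fits were those without WT KNO3 replicate 1 or *zmnrt1.1b* KNO3 replicates 2 or 4 for the first, and without WT KNO3 replicate 1 or *zmnlp3.1* KNO3 replicates 3 or 4 for the second (adjusted p from 0.0568 to 0.163).

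On chromosome 1, gene_Zm00001d033061, gene_Zm00001d033062 and gene_Zm00001d033063 lie within 249093563 to 249210506 on the minus strand. gene_Zm00001d033061 had 1.87, 2.15 and 1.15 FPKM in WT KCl and 0.27, 0.061 and 0.275 FPKM in *zmnrt1.1b* KCl, a difference of -2.65 (limma adjusted p = 0.00661). Under KNO3 the WT libraries held 0.908, 0.12 and 0.67 FPKM, the *zmnrt1.1b* libraries 0.20, 0.325 and 0.323 FPKM and the *zmnlp3.1* libraries 2.24, 2.12 and 2.53 FPKM. The *zmnlp3.1* libraries stood above all others under KNO3, by 2.10 from WT (limma adjusted p = 0.00519), while *zmnrt1.1b* overlapped WT. Its fall by 1.67 in WT (limma adjusted p = 0.0373) was lost without WT KCl replicates 1 or 2 or WT KNO3 replicate 3 (limma adjusted p = 0.111, 0.131 and 0.192), and without the last of these it was -1.01. The gene reached 1 FPKM in 8 libraries, none of them from WT KNO3 or *zmnrt1.1b*. The size of these differences depended on the pseudocount at such levels. With 1 FPKM in place of 0.1 they were -1.17 under KCl in *zmnrt1.1b*, 1.11 under KNO3 in *zmnlp3.1* and -0.81 for the WT response. gene_Zm00001d033063 had 2.20 to 4.24 FPKM in the 6 WT libraries, 0.936 to 2.04 FPKM in the 6 of *zmnrt1.1b* and 2.72 to 5.41 FPKM in the 6 of *zmnlp3.1*. It was lower in *zmnrt1.1b* by -1.46 under KCl and -1.20 under KNO3 (limma adjusted p = 0.014 and 0.0151). The KCl call was lost without WT KCl replicate 2 or *zmnrt1.1b* KCl replicates 2 or 3 (adjusted p from 0.0581 to 0.0669), and the KNO3 call without WT KNO3 replicates 1 or 4 or *zmnrt1.1b* KNO3 replicate 2 (adjusted p from 0.0587 to 0.0609). Between them lies gene_Zm00001d033062, which had 7 recovered reads in all 18 libraries.

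On chromosome 2, gene_Zm00001d006493 and gene_Zm00001d006494 are neighbours within 209822231 to 209830427. gene_Zm00001d006494 stayed between 13.1 and 19.7 FPKM and was not called. gene_Zm00001d006493 had 4.18, 3.84 and 5.97 FPKM (KCl) and 1.25, 1.02 and 4.18 FPKM (KNO3) in WT, and 5.72, 5.63 and 4.67 FPKM (KCl) and 2.57, 1.20 and 1.55 FPKM (KNO3) in *zmnrt1.1b*. In *zmnlp3.1* its 6 libraries lay between 2.0 and 3.76 FPKM with overlapping treatments. It fell by 1.33 in WT (limma adjusted p = 0.034), where WT KNO3 replicate 4 reached the KCl range, and by 1.60 in *zmnrt1.1b* (limma adjusted p = 0.013). The WT call was lost in 5 of 6 fits without 1 library, all but that without WT KNO3 replicate 4 (adjusted p up to 0.179), and the *zmnrt1.1b* call without *zmnrt1.1b* KCl replicate 2 or *zmnrt1.1b* KNO3 replicate 4 (limma adjusted p = 0.0535 and 0.0611).

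gene_Zm00001d021629 on chromosome 7, the second most abundant member and also DTX40, moved in opposite directions in the mutants. It had 58.0, 51.0 and 59.5 FPKM (KCl) and 50.03, 45.9 and 55.9 FPKM (KNO3) in WT, with overlap. It had 59.9, 62.9 and 55.9 FPKM (KCl) and 37.2, 44.2 and 40.6 FPKM (KNO3) in *zmnrt1.1b*, and 34.4, 27.7 and 37.3 FPKM (KCl) and 42, 46.2 and 48 FPKM (KNO3) in *zmnlp3.1*, without overlap in either. The gene fell by 0.55 in *zmnrt1.1b* (limma adjusted p = 0.00676) and was lower in *zmnlp3.1* than in WT under KCl by -0.77 (limma adjusted p = 0.00121). The rise of 0.46 in *zmnlp3.1* (limma adjusted p = 0.0186) was lost without *zmnlp3.1* KCl replicate 3 (adjusted p = 0.0896) or *zmnlp3.1* KNO3 replicate 4 (adjusted p = 0.0773). The response in *zmnlp3.1* was higher than in WT by 0.61 (limma adjusted p = 0.0484), a call lost in 8 of 12 fits without 1 library (adjusted p up to 0.128), namely those without WT KCl replicates 1 or 3, WT KNO3 replicates 1 or 3, *zmnlp3.1* KCl replicates 1 or 3 or *zmnlp3.1* KNO3 replicates 3 or 4.

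**Figure D4:**
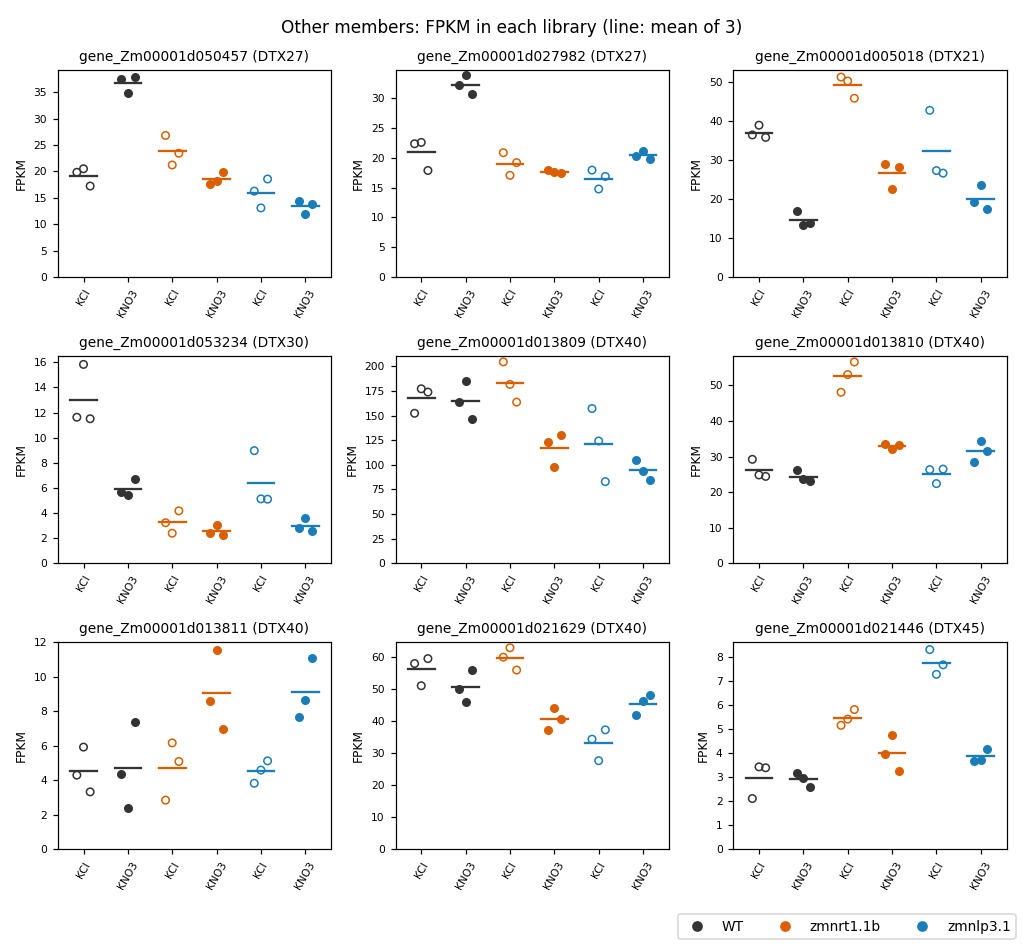
FPKM in each library for 9 further members, with KCl (open) and KNO3 (filled) libraries of WT, *zmnrt1.1b* and *zmnlp3.1* from left to right and lines at means of 3. WT KNO3 stands above the other groups for both DTX27 genes, and *zmnrt1.1b* KCl, at 48.1 to 56.6 FPKM, stands above the other groups for gene_Zm00001d013810.

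Of the 2 DTX45 genes, gene_Zm00001d021446 on chromosome 7 differed between genotypes under KCl. It had 2.11, 3.43 and 3.39 FPKM in WT KCl, 5.15, 5.41 and 5.80 FPKM in *zmnrt1.1b* KCl and 8.29, 7.26 and 7.66 FPKM in *zmnlp3.1* KCl, 3 separate ranges. Under KNO3 it had 3.16, 2.94 and 2.60 FPKM, 3.96, 4.77 and 3.24 FPKM, and 3.69, 3.72 and 4.18 FPKM in the same order. The KCl level was higher than in WT by 0.88 in *zmnrt1.1b* (limma adjusted p = 0.00933) and by 1.38 in *zmnlp3.1* (2.60-fold, limma adjusted p = 0.000354), and it fell with KNO3 by 0.98 in *zmnlp3.1* (limma adjusted p = 0.00223). The response difference there, -0.98 (limma adjusted p = 0.0357), was lost in 8 of 12 fits without 1 library, those without WT KCl replicate 1, WT KNO3 replicates 1 or 3, *zmnlp3.1* KCl replicates 1 or 3 or any *zmnlp3.1* KNO3 library (adjusted p up to 0.0869). gene_Zm00001d040665, the other DTX45 gene, had 3.64, 3.94 and 3.81 FPKM (KCl) and 5.94, 5.88 and 4.70 FPKM (KNO3) in WT, and rose by 0.52 (limma adjusted p = 0.0477). It is the called member that the rule for named genes left out, and it was added after its values were seen.

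All 7 DTX16 genes were tested and 4 were called. gene_Zm00001d015964 on chromosome 5 had 2.78, 3.17 and 2.63 FPKM (KCl) and 6.84, 6.61 and 6.33 FPKM (KNO3) in WT. It had 1.20, 1.11 and 0.818 FPKM (KCl) and 3.60, 1.20 and 1.0 FPKM (KNO3) in *zmnlp3.1*, all but 1 of them below every WT library, and 2.90 to 5.23 FPKM in *zmnrt1.1b*. The gene was lower in *zmnlp3.1* by -1.94 under KNO3 (3.83-fold, limma adjusted p = 0.000365) and by -1.39 under KCl (limma adjusted p = 0.0113), the latter -0.92 with a pseudocount of 1 FPKM and missing the threshold without *zmnlp3.1* KCl replicate 4 (adjusted p = 0.0519). Its rise of 1.18 in WT (limma adjusted p = 0.0195) was lost without WT KCl replicates 1 or 3 or WT KNO3 replicates 1 or 3 (adjusted p from 0.0582 to 0.0671). Its neighbour gene_Zm00001d015963 stayed between 2.48 and 6.32 FPKM and was not called.

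gene_Zm00001d004055 (DTX16, chromosome 2) had 13.3, 16.3 and 15.1 FPKM (KCl) and 18.5, 20.5 and 24.8 FPKM (KNO3) in WT, and 23.7, 20.03 and 23.8 FPKM (KCl) and 17.8, 16.9 and 15.7 FPKM (KNO3) in *zmnlp3.1*. The treatments were thus apart in opposite directions, and the response difference of -0.93 (SE 0.19, limma adjusted p = 0.0112) passed in every fit without 1 library and under every other alternative. The rise of 0.51 in WT (limma adjusted p = 0.0166) was lost without WT KCl replicate 1 or WT KNO3 replicate 4 (limma adjusted p = 0.0799 and 0.085). The fall by 0.42 in *zmnlp3.1* (limma adjusted p = 0.0439) was lost in 5 of 6 fits, all but that without *zmnlp3.1* KCl replicate 3 (adjusted p up to 0.15). Its KCl level was higher in *zmnlp3.1* by 0.59 (limma adjusted p = 0.00975; 0.0528 without WT KCl replicate 1) and in *zmnrt1.1b* by 0.50 (limma adjusted p = 0.0426), the latter lost in all 6 fits (adjusted p from 0.0577 to 0.172).

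gene_Zm00001d000196 (DTX16), on the unplaced contig B73V4_ctg178, had 4.42, 5.89 and 4.58 FPKM in WT KCl, 2.77, 2.36 and 2.13 FPKM in WT KNO3 and 6.3, 5.71 and 6.54 FPKM in *zmnrt1.1b* KNO3, without overlap (1.32, 2.50-fold, limma adjusted p = 0.00746). Its fall by 1.0 in WT (limma adjusted p = 0.0396) was lost in all 6 fits without 1 library (adjusted p from 0.0644 to 0.139). Its higher KNO3 level in *zmnlp3.1*, by 0.89 (limma adjusted p = 0.0359), was lost in 5 of 6, all but that without *zmnlp3.1* KNO3 replicate 4 (adjusted p up to 0.142). Zm00001d032971 on chromosome 1 had 2.81, 3.02 and 1.96 FPKM (KCl) and 7.34, 4.34 and 3.94 FPKM (KNO3) in *zmnlp3.1*, a rise of 0.94 (limma adjusted p = 0.0237) that was lost without *zmnlp3.1* KCl replicate 4 or *zmnlp3.1* KNO3 replicate 2 (limma adjusted p = 0.0746 and 0.0981).

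Further calls with lower levels in *zmnlp3.1* came from DTX10, DTX19 and DTX34. gene_Zm00001d043838 (DTX10, chromosome 3) had 12.3, 16.1 and 14.8 FPKM in WT KCl, 12.7, 12.6 and 11 FPKM in WT KNO3, 9.48, 9.45 and 6.21 FPKM in *zmnlp3.1* KCl and 6.19, 7.72 and 6.81 FPKM in *zmnlp3.1* KNO3. It was lower in the mutant by -0.79 under KCl (limma adjusted p = 0.00546) and -0.80 under KNO3 (limma adjusted p = 0.00147), and its *zmnlp3.1* libraries all lay below all WT libraries. gene_Zm00001d021569 (DTX19, chromosome 7) had 9.02 to 10.9 FPKM in the 6 WT libraries and 4.10 to 7.31 FPKM in the 6 of *zmnlp3.1*, lower by -0.97 under KCl (limma adjusted p = 0.004) and -0.76 under KNO3 (limma adjusted p = 0.00558). gene_Zm00001d049910 (DTX34, chromosome 4) had 4.61, 4.12 and 4.73 FPKM in WT KCl and 2.63, 1.21 and 0.61 FPKM in *zmnlp3.1* KCl (-1.75, 3.36-fold, limma adjusted p = 0.00361). None of these 5 calls was lost in a fit without 1 library, but with only the groups compared in the fit the KCl calls of gene_Zm00001d043838 and gene_Zm00001d049910 were lost (limma adjusted p = 0.0725 and 0.0779).

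gene_Zm00001d009494 (DTX10, chromosome 8) fell in both mutants, and its response in WT was 0.03 (limma adjusted p = 0.979). It had 8.01, 7.64 and 6.81 FPKM (KCl) and 1.04, 2.59 and 3.86 FPKM (KNO3) in *zmnrt1.1b*, and 14.1, 6.79 and 6.3 FPKM (KCl) and 4.70, 1.84 and 2.06 FPKM (KNO3) in *zmnlp3.1*, against 2.14 to 5.26 FPKM in the WT libraries. All KCl libraries of the mutants thus lay above all WT libraries, without a call between genotypes (limma adjusted p = 0.186 for *zmnrt1.1b* and 0.0708 for *zmnlp3.1*). The falls by 1.72 and 1.65 (limma adjusted p = 0.0189 and 0.0247) were each lost in 3 of 6 fits, without *zmnrt1.1b* KCl replicates 2 or 3 or *zmnrt1.1b* KNO3 replicate 2 for the first and without *zmnlp3.1* KCl replicate 1 or *zmnlp3.1* KNO3 replicates 3 or 4 for the second (adjusted p from 0.055 to 0.114). gene_Zm00001d018638 (DTX19, chromosome 7), which overlaps a gene on the opposite strand, had 0.059, 0.528 and 1.1 FPKM in WT KNO3 and 2.37, 1.67 and 1.92 FPKM in *zmnrt1.1b* KNO3 (2.07, limma adjusted p = 0.0177). That call was lost without WT KNO3 replicate 1 (adjusted p = 0.0781), the library at 0.059 FPKM, or *zmnrt1.1b* KNO3 replicate 2 (adjusted p = 0.0518). The difference was 1.25 in the first of these fits and 0.98 with a pseudocount of 1 FPKM.

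The 14 tested members without a call included abundant ones. Zm00001d042692 (DTX20) had 31.3 to 41.1 FPKM in the WT libraries, 33.1 to 36.1 FPKM in *zmnlp3.1* KCl and 27.3 to 33.5 FPKM in *zmnlp3.1* KNO3. In *zmnrt1.1b* KNO3 it had 16.5, 31.6 and 34.4 FPKM, and the low library, replicate 2, was also the lowest of the 18 for gene_Zm00001d023277 (DTX21) at 12.6 FPKM and for Zm00001d044133 (DTX18) at 5.43 FPKM. DTX18 is known in *Arabidopsis* for exporting hydroxycinnamic acid amides, and Zm00001d044133 otherwise had 12.3 to 19.8 FPKM. The DTX12 gene gene_Zm00001d027921 lay between 11.6 and 24.2 FPKM, and the DTX46 gene Zm00001d015060, whose *Arabidopsis* counterpart is a relative of a salicylic acid exporter, lay between 7.28 and 11.5 FPKM.

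Other families that handle foreign and secondary compounds were counted in the same fit for the response to KNO3, beside 12.8% of all genes called in WT (6.43% up and 6.42% down). Of 71 tested glutathione S-transferase genes, which conjugate such compounds to glutathione, 1 rose and 13 fell in WT (19.7%), with a median of -0.14. In *zmnlp3.1* 35.2% of them were called (9 up and 16 down), beside 20% of the tested DETOXIFICATION genes and 14.0% of all genes, and in *zmnrt1.1b* 14.1%, beside 26.7% and 15.2%. Of 22 tested ABC transporters of the B family 2 fell in WT (9.09%), of 15 of the C family 2 rose (13.3%), and of 46 of the G family 4 rose and 3 fell (15.2%). Of 5 tested aluminum-activated malate transporters, which release malate, 1 rose and 2 fell (60%). The single glutathione S-transferase that rose in WT was Zm00001d029801 (0.62), the B family genes were Zm00001d031871 (-0.42) and Zm00001d011644 (-1.95), and the C family genes were gene_Zm00001d045269 (0.64) and Zm00001d045279 (0.60). The malate transporters were Zm00001d045696 (0.79), Zm00001d017571 (-1.48) and Zm00001d046029 (-0.77). In the G family Zm00001d052726 (0.99), Zm00001d044476 (0.91), Zm00001d011006 (1.01) and Zm00001d043598 (1.22) rose, and Zm00001d034940 (-1.31), Zm00001d021647 (-1.87) and Zm00001d044442 (-1.17) fell. These genes are named after their values were seen, because the counts are small.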

How the data were processed

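Root RNA selected on poly-T beads was sequenced in 18 libraries as 150 bp paired reads. Per the labels and the study's methods, the authors trimmed reads with fastp, mapped them to B73 RefGen_v4 with HISAT2 2.0.5 and deposited FPKM values (StringTie 1.3.3b is also named in the submitters' processing notes), and the counting program, its use of strand and the scaling are not given in the sources used here. The deposited FPKM times gene length gave whole reads (tolerance 0.05) for 100% of values above 0. Median ratio factors were almost the same in all libraries, so that rescaling by them changed no member's call. Members and lists were chosen with earlier results of these data known. limma 3.58.1 (R 4.3.3) was fitted on log2(FPKM + 0.1) with trended variance, 6 group means and 12 residual degrees of freedom, two-sided, for genes of at least 1 FPKM in at least 3 libraries. The fit was tested on simulated data with known changes. Tables were made with Python 3.11.15 and pandas 2.3.3. Named are gene_Zm00001d017590, called members (if more than 30, those 30 with the smallest adjusted p in any comparison) and the 8 of highest mean level. Each fit was repeated with another pseudocount, other minimums, other scaling, a replicate block, only the groups compared, limma voom on recovered reads, and each library left out in turn. Each fit ended with the same call rule, and p-values adjusted over all genes tested. No member ID matched the RefSeq gene table used here, and no sequence is shown.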

Additional observations from a re-analysis of the deposited data

Results flagged for a closer look

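For 9 members the response to KNO3 differed between a mutant and WT by limma's test of the difference itself, at an adjusted p under 0.05. gene_Zm00001d050457 (DTX27) had the lower response, KNO3 minus KCl, in both mutants, with differences on the log2 scale of -1.29 for *zmnrt1.1b* and -1.18 for *zmnlp3.1*, while gene_Zm00001d027982 (DTX27) had -0.73 in *zmnrt1.1b*. In *zmnlp3.1* the response was lower than in WT for gene_Zm00001d017590 (DTX49, -1.37), gene_Zm00001d034916 (DTX56, -1.12), gene_Zm00001d021446 (DTX45, -0.98), gene_Zm00001d004055 (DTX16, -0.93) and gene_Zm00001d012883 (DTX54, -0.92). It was higher for gene_Zm00001d031730 (DTX52, 1.53) and gene_Zm00001d021629 (DTX40, 0.61). A lower response is not always a weaker one, since gene_Zm00001d021446 had a response of -0.0068 in WT and fell by 0.98 in *zmnlp3.1*. These comparisons share the WT libraries.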

How the results depend on the processing

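Of the 98 calls of the named members, none reversed under any alternative, 51 were lost under none, 43 were lost without at least 1 library and 34 under at least 1 other setting. Calls lost numbered 1 with a pseudocount of 1 FPKM, 6 with a minimum of 0.1 FPKM, 14 with no minimum, 0 with median ratio scaling, 25 with only the groups compared in the fit and 4 with limma voom. Median ratio scaling could hardly change a call, because its factors were almost the same in all libraries. With only the groups compared, 4 members were called for the response in *zmnlp3.1* and 5 for *zmnlp3.1* against WT under KCl. Calls over all genes moved from 1790 up and 1857 down to 408 and 430 in the former. In the latter they moved from 671 and 1771 to 230 and 760. They rose for the WT response, from 1673 and 1669 to 2076 and 2081. They also rose for *zmnrt1.1b* against WT under KCl and for its response difference, and fell in the other comparisons. The reason was not tested. With no minimum, 5 were called for the response difference in *zmnlp3.1*, where more genes enter the adjustment. Over the fits without 1 library, members called numbered 10 to 17 for the WT response, 6 to 13 for that of *zmnrt1.1b* and 5 to 13 for that of *zmnlp3.1*. They numbered 5 to 8 for *zmnrt1.1b* against WT under KCl, 1 to 2 for the response difference in *zmnrt1.1b* and 3 to 8 for that in *zmnlp3.1*. Calls over all genes fell in most of these fits as well. Without WT KNO3 replicate 3 those of the WT response moved from 1673 up and 1669 down to 1077 and 1116. What the replicate numbers stand for is not given in the sources used here. Within a genotype, deviations of same-numbered libraries correlated between -0.07 and 0.27 across treatments, and those of other pairs between -0.23 and 0.16. Pairs across genotypes were not compared. With the replicate number as a block, 13 of the 98 calls were lost, and the members called numbered 17 for the WT response, 13 and 10 for *zmnrt1.1b* and *zmnlp3.1*, 9 and 9 for the mutants against WT under KCl, 11 and 20 under KNO3, and 2 and 9 for the response differences. Over all genes the block moved the response differences in *zmnrt1.1b* from 141 higher and 252 lower to 667 and 515. In *zmnlp3.1* it moved them from 574 and 698 to 856 and 867. With 3 libraries a group, differences of low members near 1 FPKM rest on few reads.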
